A study of Rattus norvegicus with 17 samples.

Results

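The opioid system of the adolescent rat hippocampus was followed through 8 genes, chosen by name from the 34322 genes of the count table. 4 encode peptide precursors (Penk, Pdyn, Pnoc and Pomc) and 4 encode receptors (Oprm1, Oprd1, Oprk1 and Oprl1). RNA was sequenced from the hippocampus of 17 Long-Evans rats aged 36 to 38 days. 5 were offspring of a dam given a liquid diet with ethanol during gestation (ET), with ethanol supplying 36% of the calories, 6 were offspring of a pair-fed dam given a comparable liquid diet without ethanol (PF), and 6 were offspring of a dam fed chow ad libitum (AD). The diets ran from gestational day 0 to 20, with 6.7% ethanol in the ET diet, and every dam had chow from day 20. Each diet was represented by 1 litter, so diet and litter cannot be told apart, and p-values measure only the spread between these animals. The ET group held 3 males and 2 females, and the PF and AD groups each held 3 males and 3 females. Tissue came from the left hippocampus except in 1 ET, 2 PF and 1 AD animal.

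Opioid peptides are cut from larger precursors that are stored in dense-core vesicles and released by active neurons. Enkephalins, from Penk, act on delta and mu receptors. Dynorphins, from Pdyn, act on kappa receptors and are known in the hippocampus from the mossy fibers of dentate granule cells. Nociceptin, from Pnoc, acts on its own receptor. Beta-endorphin, from Pomc, acts on mu receptors and is made mainly by neurons of the hypothalamus and by the pituitary. The receptors couple to inhibitory G proteins, which lower adenylyl cyclase activity, open inwardly rectifying potassium channels and close presynaptic calcium channels. In the hippocampus, mu and delta receptors are found largely on interneurons.

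Total counts per library were between 10853947 and 17498392 (median 13538433). The 14 libraries that the study kept in its final analysis (4 ET, 5 PF and 5 AD) were used in the tests, and are called the kept libraries. The 3 libraries left out (ET replicate 2, PF animal 11f6 and AD replicate 4) had summed choroid plexus markers of 9729.1, 10534.0 and 11123.0 CPM (library-size-scaled counts), against 210.9 to 1772.9 in the others. The labelled tissue was set beside 7 markers of hippocampal principal neurons, which summed to between 2120.6 and 2803.8 CPM. None had a median of 0 in any diet group. Most of each sum came from Slc17a7 (20750.0 to 27061.1 normalized counts, and at most 5192.5 for any other of the 7). The sum therefore does not check the granule cells, whose marker Prox1 ran from 110.0 in ET replicate 1 to 682.5 in ET replicate 3. The sex labels of 2 AD animals did not match their Y-linked genes, and sexes were therefore compared only in ET and PF animals. Levels below are normalized counts, scaled for library size and composition but not divided by transcript length, so they compare libraries within a gene and not one gene with another.

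The central comparison was between ethanol-exposed and pair-fed offspring, whose maternal diets differed in ethanol. None of the opioid genes passed the threshold, which asked for a log2 fold change beyond 1.5 in either direction and an adjusted p-value under 0.01 (edgeR's quasi-likelihood test, Benjamini-Hochberg adjustment): 0 of 8 were called, against 2.17% of all 16068 genes tested. DESeq2 also called 0 of 8. At an unadjusted p-value below 0.05 there was 1 gene, Pnoc, against 11.9% of all genes. Against ad libitum controls, ET offspring had 0 of 8 opioid genes past the threshold (0.0127% of 15749 genes tested), 0 by DESeq2 and 0 at an unadjusted p-value below 0.05 (2.74% of all genes). Between PF and AD offspring, 0 of 8 passed (2.05% of 15960 genes tested) and 0 by DESeq2, and 3 of the precursor genes, Penk, Pnoc and Pomc, were at an unadjusted p-value below 0.05, each with a lower fitted level in PF (16.4% of all genes were at that level, and 6.77% were at it and lower in PF). The 3 comparisons share their diet groups and are not independent of each other. In whole tissue, fewer cells of a type and less RNA per cell cannot be told apart.

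**Figure D1:**
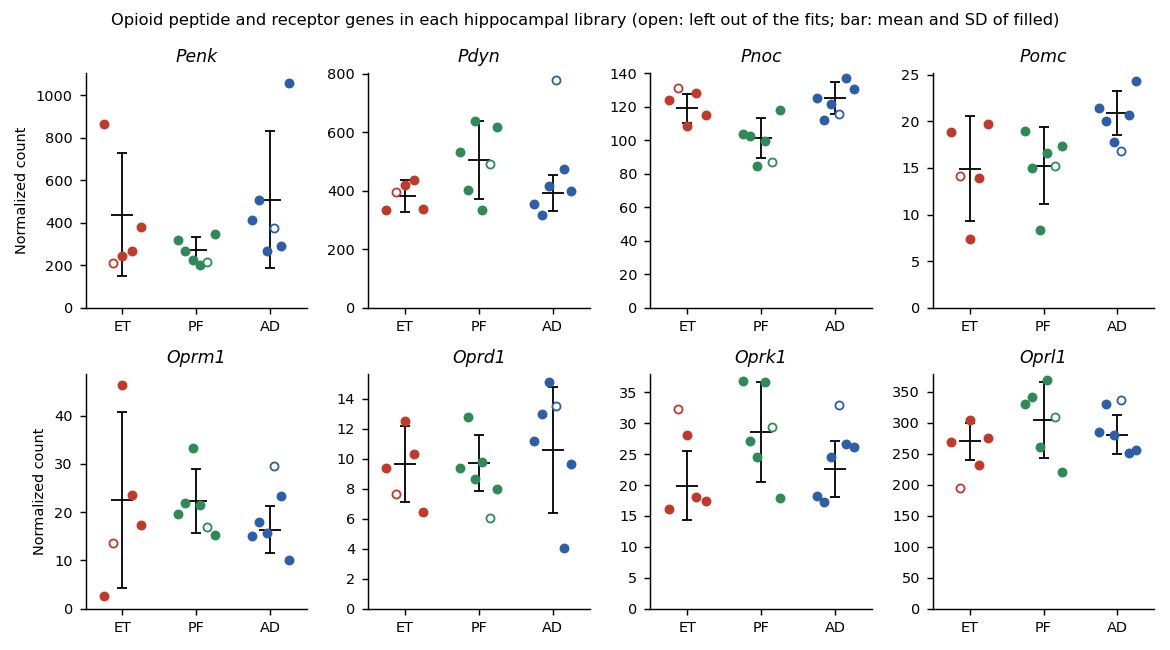
Normalized counts of the 8 opioid genes in each library, by diet group; each panel has its own linear axis from 0, filled points are the 14 libraries of the tests, open points the 3 left out, and bars give the mean and SD of the filled points. The diet groups overlap in every panel; in Penk, ET replicate 1 (864.0) and AD replicate 6 (1058.0) stand above all other libraries.

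Penk, the enkephalin precursor, had the widest spread of the precursors. In the ET group its normalized counts were 864.0, 242.4, 265.0 and 382.3, and 209.7 in the library left out. The kept PF libraries ran from 200.4 to 346.8 with a median of 268.4, and the kept AD libraries from 269.4 to 1058.0 with a median of 415.2. The PF and AD libraries left out had 214.5 and 374.6. One ET library (replicate 1) and one AD library (replicate 6) were far above their groups, and all other libraries of the 3 diets overlapped. Group means were 438 ± 290 in ET (SD, n = 4), 272 ± 61.1 in PF (n = 5) and 508 ± 322 in AD (n = 5).

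The fitted Penk log2 fold change was 0.69 ± 0.35 (SE) in ET against PF (95% interval -0.09 to 1.47, edgeR adjusted p = 0.52). Without ET replicate 1 it was 0.12, so that library carried most of the difference. In ET against AD the change was -0.21 ± 0.48 (interval -1.27 to 0.85, adjusted p = 1), and it was 0.24 without AD replicate 6 and -0.78 without ET replicate 1. In PF against AD it was -0.90 ± 0.34 (interval -1.65 to -0.15, adjusted p = 0.21), and -0.45 without AD replicate 6. The direction of the Penk value in ET against AD thus rested on single animals.

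The spread of Penk between animals of one diet was large for a gene of its level. The SD of its log2 level within diets was 0.63 over the 17 libraries, and 98.9% of the 11262 genes with a mean of at least 100 normalized counts varied less. In the kept libraries the share was 99.4%.

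Both high-Penk libraries were also those highest in the sum of 6 markers of the cerebral cortex, which borders the dissected tissue. This was not particular to the cortex list. The same libraries, ET replicate 1 and AD replicate 6, were highest in the summed striatal markers (186.5 and 226.5 CPM, at most 165.7 in the others). They were also highest in the summed interneuron markers (802.1 and 742.5 CPM, at most 732.3 in the others). Lamp5, a marker of cortical neurons, had 2515.5 normalized counts in ET replicate 1 and 1974.5 in AD replicate 6, against 472.9 to 1237.5 in the other libraries, and Rspo1 had 92.5 and 94.4 against 37.1 to 70.4. The other 4 markers did not single out both libraries. Tbr1 was highest in ET replicate 1 (1479.2), while AD replicate 6 (1061.0) lay among the others. Cux2 was highest in PF animal 11f5 (995.6), and Rorb was lowest of all libraries in ET replicate 1 (76.4, median 121.4). The 6 cortex markers summed to 436.3 CPM in ET replicate 1 and 361.7 CPM in AD replicate 6. In the ET group the sum ran from 130.8 to 436.3 CPM, in PF from 130.3 to 280.5 CPM and in AD from 138.7 to 361.7 CPM; none of the 6 had a median of 0 in any group, and 0 of 6 were called in any diet comparison. ET replicate 1 was lowest of all libraries in Prox1, at 110.0 normalized counts against a median of 419.4. AD replicate 6 also held pineal genes, with 4 pineal markers summing to 1020.9 CPM, while no kept library of the ET and PF groups passed 1.33 CPM.

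Within diets, Penk increased with the mean log2 level of the cortex markers over 17 libraries (Pearson r = 0.74, permutation p = 0.0012, adjusted p = 0.031; Spearman rho = 0.72, permutation p = 0.0075, adjusted p = 0.097; 40 relations between opioid genes and 5 marker lists were computed, with permutation within diets). Without the 2 libraries farthest out in the markers, which are ET replicate 1 and AD replicate 6, r was 0.56. Of the 40 relations, 10 passed an adjusted p-value of 0.05 by Pearson's r and 0 by Spearman's rho. By diet, r of Penk with the cortex markers was 0.94 in ET, 0.22 in PF and 0.76 in AD. Penk was related as closely to the mean log2 level of the interneuron markers (r = 0.76, permutation p = 0.0019, adjusted p = 0.031, rho = 0.64, adjusted p = 0.097). The same held for the striatal markers (r = 0.74, permutation p = 0.0034, adjusted p = 0.033, rho = 0.56, adjusted p = 0.097). Without the 2 farthest libraries of each list, these r were 0.70 and 0.71. Penk was related inversely to principal neuron markers (r = -0.72, and -0.49 without their 2 farthest libraries). With the cortex markers as a covariate, an analysis added after the data were seen, the Penk log2 fold changes were 0.54 in ET against PF, -0.02 in ET against AD and -0.62 in PF against AD. The part of neighbouring tissue in these differences was not tested beyond these values.

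**Figure D2:**
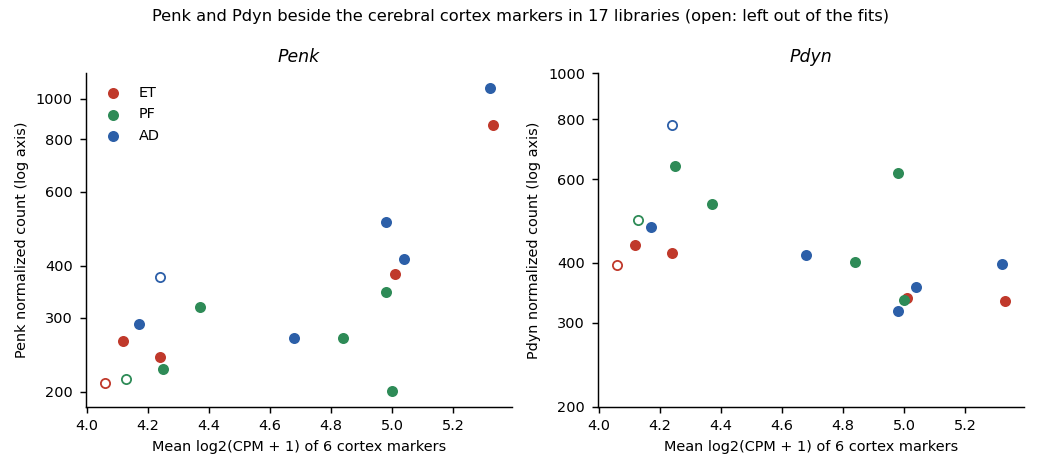
Penk and Pdyn normalized counts (log axes) against the mean log2(CPM + 1) of 6 cerebral cortex markers in 17 libraries, colored by diet; open points are the 3 libraries left out of the tests. The 2 libraries highest in the markers, ET replicate 1 and AD replicate 6, are the 2 highest in Penk (864.0 and 1058.0), while Pdyn is lower toward the right.

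Pdyn, the dynorphin precursor, had its highest group mean in PF, where Penk had its lowest. In the ET group its normalized counts were 332.9, 420.6, 436.4 and 338.5, with 396.8 in the library left out. The kept PF libraries ran from 335.2 to 640.3 with a median of 532.5, and kept AD libraries from 317.0 to 475.2 with a median of 399.0. 3 of the 5 kept PF animals lay above every kept ET and AD library, and the other 2 lay among them. Of the libraries left out, the PF one had 492.4 and the AD one 778.8, above all others.

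The Pdyn log2 fold change was -0.40 ± 0.19 in ET against PF (interval -0.82 to 0.02, edgeR adjusted p = 0.45) and 0.37 ± 0.18 in PF against AD (interval -0.01 to 0.75, adjusted p = 0.32). With all 17 libraries, the one at 778.8 included, the PF against AD value was 0.14 ± 0.22. ET against AD was -0.04 ± 0.13 (interval -0.32 to 0.24, adjusted p = 1), and -0.25 ± 0.20 with all 17 libraries. Within diets Pdyn moved against the cortex markers (r = -0.61, permutation p = 0.0058, adjusted p = 0.033; rho = -0.59, adjusted p = 0.097; r = -0.65 without the 2 farthest libraries) and with the principal neuron markers (r = 0.50, permutation p = 0.0053, adjusted p = 0.033; rho = 0.64, adjusted p = 0.097; r = 0.57 without the 2 farthest). Its within-diet SD of 0.34 exceeded that of 95.4% of genes of at least 100 normalized counts. In the GRCr8 gene list Pdyn overlaps 1 gene, LOC120101661, which had 1.3 to 7.7 counts.

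Pnoc, the nociceptin precursor, was the steadiest of the precursors, and the one with the smallest unadjusted p-value in ET against PF and in PF against AD. Its normalized counts in the ET group were 124, 108.7, 128.5 and 115.2, and 131.1 in the library left out. Kept PF libraries ran from 84.6 to 118.1 with a median of 102.8, and kept AD libraries from 112.3 to 137.5 with a median of 125.3, with 87.2 and 116.0 in those left out. 4 of the 5 kept PF animals were below every kept ET and AD animal, and PF replicate 6, at 118.1, lay among them.

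The mean Pnoc level was lowest in PF, at 102 ± 12 (SD, n = 5) against 119 ± 8.88 in ET (n = 4) and 126 ± 9.41 in AD (n = 5). The log2 fold change was 0.22 ± 0.10 in ET against PF (interval 0.00 to 0.44, unadjusted p = 0.046, edgeR adjusted p = 0.4) and -0.30 ± 0.09 in PF against AD (interval -0.49 to -0.10, unadjusted p = 0.0071, adjusted p = 0.1). ET against AD was -0.07 ± 0.08 (interval -0.26 to 0.11, adjusted p = 1), and ran from -0.12 without AD replicate 2 to -0.03 without ET replicate 3. In PF against AD the adjusted p-value was 0.039 with all 17 libraries and 0.031 without PF replicate 6, and over all alternatives it ran from 0.031 to 0.22, always with a log2 fold change between -0.35 and -0.24 that is far inside the fold limit. Its within-diet SD of 0.13 was near the middle of all genes of at least 100 normalized counts (53.1% varied less).

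Pomc, the precursor of beta-endorphin and of several melanocortin and corticotropin peptides, was at low counts in every library. ET libraries had 18.8, 7.33, 13.9 and 19.7 normalized counts, and 14.1 in the one left out. Those of the kept PF libraries ran from 8.29 to 19 with a median of 16.6, and kept AD libraries from 17.8 to 24.3 with a median of 20.7, with 15.2 and 16.8 in those left out. The kept AD animals were toward the top, and 2 kept ET and 1 kept PF animals lay among them.

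The Pomc log2 fold change was -0.05 ± 0.30 in ET against PF (interval -0.71 to 0.61, edgeR adjusted p = 0.99), -0.50 ± 0.25 in ET against AD (interval -1.05 to 0.05, adjusted p = 1) and -0.45 ± 0.18 in PF against AD (interval -0.85 to -0.05, unadjusted p = 0.037, adjusted p = 0.26). Without ET replicate 3, the ET against AD value was -0.27. Within diets Pomc moved with the striatal markers (r = 0.62, permutation p = 0.0023, adjusted p = 0.031, rho = 0.61, adjusted p = 0.097, and r = 0.64 without the 2 farthest libraries) and the interneuron markers (r = 0.71, permutation p = 0.011, adjusted p = 0.046, rho = 0.56, adjusted p = 0.13, and r = 0.62 without the 2 farthest).

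Pomc was also set beside 11 markers of the hypothalamus and pituitary, which summed to 6.4 to 12.7 CPM in ET, 8.24 to 11.7 CPM in PF and 5.24 to 12.2 CPM in AD. The pituitary hormone genes Gh1 and Prl had a median of 0 in all 3 diets. Cartpt, a neuropeptide gene, had 31.2 to 110.9 normalized counts. Agrp, which encodes a melanocortin receptor antagonist of hypothalamic neurons, had 34.9 to 42.8 normalized counts in the PF libraries and 2.35 to 7.8 in all ET and AD libraries. The rest of the list did not share this pattern, apart from Pmch, with at most 2.55 in PF and 0 in every ET and AD library. Trh had 6.7 to 18.8 normalized counts in PF and 15.8 to 54.6 in ET. Hcrt had 5.64 to 16.3 in PF and 7.94 to 21.6 in ET. Of the 4 genes of this list that passed the filter in ET against PF, 1 was called, lower in ET (2.17% of all genes), and of the 3 that passed it in PF against AD, 1 was called, higher in PF (2.05% of all genes). The part of these cells in the Pomc counts was not tested. In the GRCr8 gene list, Pomc overlaps Efr3b, a plasma membrane scaffold gene with 2210.3 to 4284.3 counts. Reads were allowed to count for more than 1 feature and the strand setting is not given in the sources used here, so the share of Pomc counts that came from Efr3b transcripts was not tested.

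**Figure D3:**
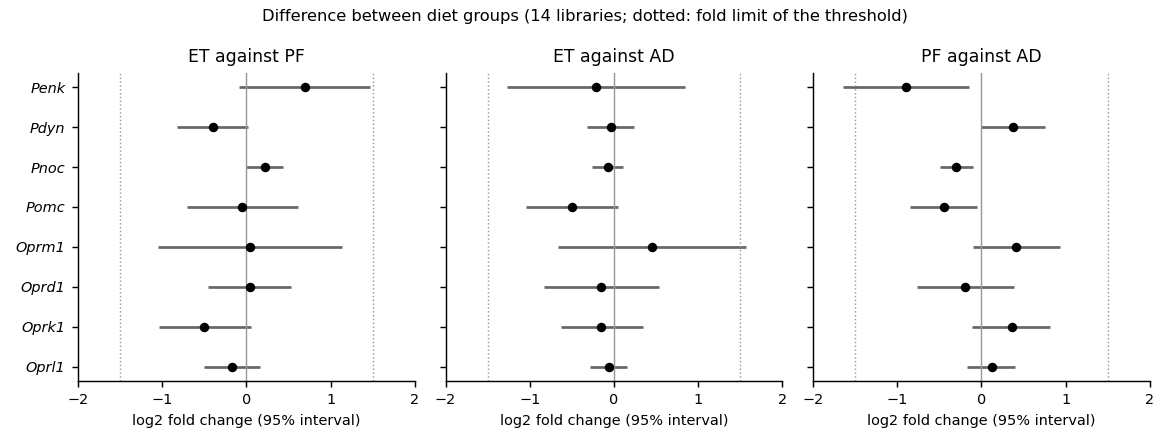
Fitted log2 fold changes of the 8 opioid genes in the 3 diet comparisons (14 libraries); points are estimates, horizontal lines 95% intervals, and dotted lines the fold limit of 1.5 on the log2 scale. Intervals of Penk and Oprm1 are wide and those of Pnoc and Oprl1 narrow, and only PF against AD has intervals clear of 0 (Penk, Pnoc and Pomc) apart from Pnoc in ET against PF, whose lower end is 0.00.

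Among the receptors, Oprm1, the mu receptor, varied most. The ET libraries had 2.68, 46.4, 23.6 and 17.4 normalized counts, and 13.7 in the library left out. Kept PF libraries ran from 15.3 to 33.2 with a median of 21.5, and kept AD libraries from 10 to 23.3 with a median of 15.7, with 17 and 29.6 in those left out. The lowest and the highest library of the study were both in the ET group, replicate 1 and replicate 3, and the PF and AD ranges lay between them. ET replicate 3 was also highest of all libraries in the summed markers of thalamus and habenula, at 299.5 CPM against 155.6 to 288.7 CPM in the others, and the part of that tissue in its Oprm1 value was not tested.

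The Oprm1 log2 fold change was 0.04 ± 0.49 in ET against PF (interval -1.05 to 1.14, edgeR adjusted p = 0.99), and it turned to -0.60 without ET replicate 3. It was 0.45 ± 0.51 in ET against AD (interval -0.67 to 1.57, adjusted p = 1), and -0.19 without ET replicate 3. With all 17 libraries the ET against AD value was 0.17, and without ET replicate 1 it was 0.80. It was 0.11 with a replicate block and 0.10 with the cortex markers as a covariate, the latter chosen after the data were seen. In PF against AD the change was 0.41 ± 0.24 (interval -0.10 to 0.93, adjusted p = 0.43), and it was 0.23 without PF replicate 3 and 0.19 with all 17 libraries. The interval of ET against PF reaches past 1 on the log2 scale in both directions, and that of ET against AD only upward. Changes of that size in those directions are therefore not excluded by these animals.

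Within diets Oprm1 moved with the principal neuron markers (r = 0.78, permutation p = 0.0042, adjusted p = 0.033; rho = 0.61, adjusted p = 0.097), and r was 0.45 without ET replicate 1 and PF replicate 3, the libraries farthest out in those markers. It moved against the striatal markers (r = -0.54, permutation p = 0.012, adjusted p = 0.046, rho = -0.51, adjusted p = 0.13, and r = -0.55 without the 2 farthest) and, short of an adjusted p-value of 0.05, against the interneuron markers (r = -0.69, permutation p = 0.039, adjusted p = 0.1, rho = -0.40, adjusted p = 0.37, and r = -0.71 without the 2 farthest) and the cortex markers (r = -0.64, permutation p = 0.015, adjusted p = 0.054, rho = -0.51, adjusted p = 0.2, and r = -0.38 without the 2 farthest). With the markers of thalamus and habenula r was 0.22 (adjusted p = 0.64 by permutation), and 0.62 in the 14 kept libraries. By diet it was 0.67 in ET, -0.42 in PF and -0.22 in AD. Oprm1 overlaps Ipcef1, a gene with 410.3 to 1560.3 counts, and the share of its counts shared with that gene was not tested.

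Oprd1, the delta receptor, was the gene with the fewest counts. It had 9.39, 12.5, 10.3 and 6.45 normalized counts in ET and 7.66 in the library left out. In the kept PF libraries it ran from 7.96 to 12.8 with a median of 9.36, and in the kept AD libraries from 4.06 to 15.1 with a median of 11.2, with 6.03 and 13.5 in those left out. The AD range enclosed both others. The log2 fold change was 0.04 ± 0.22 in ET against PF (interval -0.46 to 0.53, edgeR adjusted p = 0.99), -0.15 ± 0.31 in ET against AD (interval -0.83 to 0.54, adjusted p = 1) and -0.19 ± 0.26 in PF against AD (interval -0.76 to 0.39, adjusted p = 0.8). Single libraries moved both values against AD. ET against AD was -0.01 without ET replicate 5 or AD replicate 3, -0.05 without AD replicate 2, -0.30 without ET replicate 3 and -0.33 without AD replicate 5. PF against AD was -0.05 without AD replicate 3, -0.09 without AD replicate 2, -0.29 without PF replicate 2 and -0.36 without AD replicate 5.

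Oprk1, the kappa receptor on which dynorphins act, had its lowest mean in ET. Its normalized counts were 16.1, 28.1, 18.1 and 17.4 in ET, and 32.3 in the library left out. In the kept PF libraries they ran from 17.9 to 36.8 with a median of 27.1, and in the kept AD libraries from 17.2 to 26.6 with a median of 24.5, with 29.4 and 32.9 in those left out. ET replicate 1 and ET replicate 5 were below every PF library, ET replicate 4 was just above the lowest, and ET replicate 3 and the library left out were well inside the PF range. The log2 fold change was -0.50 ± 0.25 in ET against PF (interval -1.04 to 0.05, edgeR adjusted p = 0.49), -0.15 ± 0.22 in ET against AD (interval -0.63 to 0.34, adjusted p = 1) and 0.36 ± 0.21 in PF against AD (interval -0.11 to 0.82, adjusted p = 0.45). Within diets Oprk1 moved with the markers of thalamus and habenula without passing an adjusted p-value of 0.05 (r = 0.57, permutation p = 0.036, adjusted p = 0.1, rho = 0.59, adjusted p = 0.097, and r = 0.70 without the 2 farthest libraries). ET replicate 3, the highest library in the summed level of those markers, was the highest kept ET library in Oprk1, and without it the value was -0.36 in ET against AD. The part of that tissue was not tested. Oprk1 and Pdyn, receptor and ligand precursor, both had their highest group mean in PF, at 28.6 ± 8.12 and 506 ± 133 normalized counts (SD, n = 5), with neither passing the test.

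Oprl1 encodes the nociceptin receptor. Its normalized counts in ET were 269.2, 304.9, 232.4 and 276.2, and 194.8 in the library left out. In the kept PF libraries they ran from 221.0 to 369.8 with a median of 331.2, and in the kept AD libraries from 251.6 to 329.8 with a median of 280.4, with 309.8 and 337.6 in those left out. The kept PF range enclosed those of the kept ET and AD libraries. The log2 fold change was -0.17 ± 0.15 in ET against PF (interval -0.50 to 0.16, edgeR adjusted p = 0.8), -0.06 ± 0.10 in ET against AD (interval -0.28 to 0.16, adjusted p = 1) and 0.12 ± 0.13 in PF against AD (interval -0.17 to 0.40, adjusted p = 0.73). Without PF animal 11f5 the values were -0.09 in ET against PF and 0.04 in PF against AD, and without PF replicate 6 they were -0.27 and 0.21. With all 17 libraries they were -0.26 and 0.07, and ET against AD was -0.19. The 95% intervals of Oprl1 leave out a change past 1 on the log2 scale in either direction.

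Overlap of the diet groups was counted for the 7 opioid genes with a mean of at least 10 normalized counts. In the kept libraries, 0 of 7 had groups that did not overlap in any diet comparison. Over 15920 genes the share was 6.11% in ET against PF, 1.28% in ET against AD and 6.13% in PF against AD. At these shares, 7 genes are too few for the 0 to set the opioid genes apart from other genes.

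**Figure D4:**
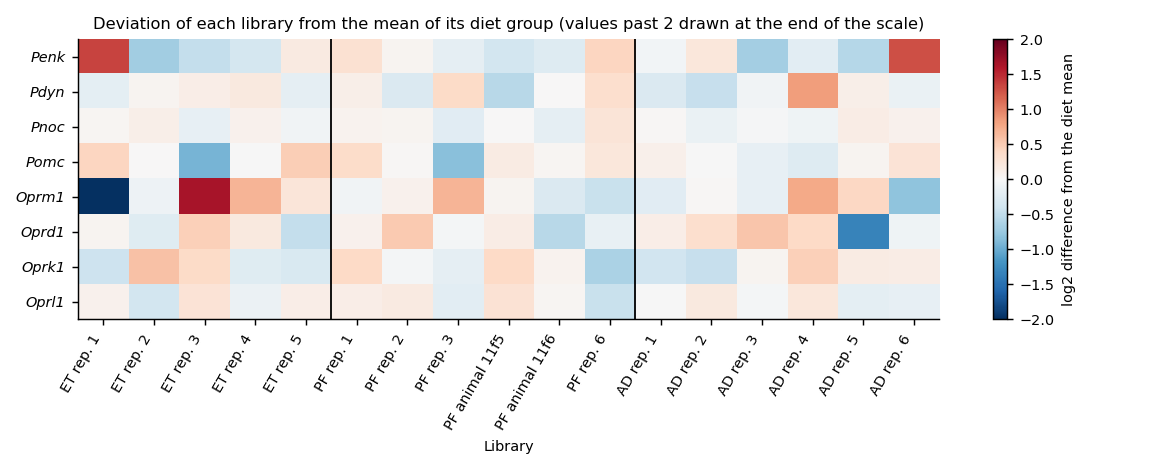
Log2 difference of each library from the mean of its diet group for the 8 opioid genes (color scale from -2 to 2; values past 2 are drawn at its end); columns are the 17 libraries in diet order. Penk is high in ET replicate 1 and AD replicate 6, and Oprm1 is low in ET replicate 1 and high in ET replicate 3.

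Sex was compared in the 9 kept ET and PF animals with diet as a covariate. None of the opioid genes passed: 0 of 8 were called (0.0303% of 16484 genes tested), 0 by DESeq2 and 0 at an unadjusted p-value below 0.05 (1.90% of all genes). Male over female log2 fold changes ran from -0.39 ± 0.52 for Oprm1 to 0.27 ± 0.30 for Pomc, and the adjusted p-value of edgeR was 1 for every opioid gene. The difference of the ethanol effect between the sexes was tested as an interaction, with 0 of 8 past an adjusted p-value of 0.01 (0% of all genes), 0 by DESeq2 and 0 at an unadjusted p-value below 0.05 (1.40% of all genes). The largest interaction was that of Penk, at -0.79 ± 0.71 (interval -2.41 to 0.83), and at 2 females in the ET group the intervals were wide, from -0.58 to 0.38 for Pnoc to -2.40 to 2.65 for Oprm1. ET replicate 1 and ET replicate 3, which decide the Penk and Oprm1 values above, are those 2 females.

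Right and left hippocampi were compared over the 14 libraries with diet as a covariate, with 3 right-side libraries. 0 of 8 opioid genes passed the threshold (0% of 16439 genes tested), 0 by DESeq2 and 0 at an unadjusted p-value below 0.05 (1.78% of all genes). Right over left log2 fold changes ran from -0.39 ± 0.50 for Oprm1 to 0.23 ± 0.18 for Pdyn. Over the alternatives the Pdyn value ran from 0.10 to 0.23.

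The machinery around the opioid genes was described with 7 lists of 70 genes: enzymes and granule proteins of peptide processing, peptidases that degrade opioid peptides, inhibitory G proteins and adenylyl cyclases, channels gated by the receptors, proteins of receptor desensitization, other opioid-binding or receptor-associated proteins, and activity-regulated genes. 69 of the 70 were tested in each diet comparison, and 0 passed the threshold in any of the 3, against 2.17%, 0.0127% and 2.05% of all genes in ET against PF, ET against AD and PF against AD. The median log2 fold change of a list was between -0.14 and 0.06, and that over all genes was within 0.01 of 0. The most one-sided counts were in PF against AD, where 10 of 11 activity-regulated genes and 12 of 13 desensitization genes had a negative fold change, with medians of -0.14 and -0.09, against 50.9% of all genes tested. An unadjusted p-value below 0.05 was reached by 1 and 2 of them, where 16.4% of all genes reached it. In ET against AD, which shares the AD animals, 9 of 11 and 9 of 13 were negative (48.6% of all genes), and in ET against PF 4 of 11 and 6 of 13 (48.1%).

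In ET against PF the smallest p-values of these lists were those of Rgs9, a G protein regulator of striatal neurons (log2 fold change -0.46 ± 0.18, edgeR adjusted p = 0.3), and Nptx2, a secreted pentraxin induced by activity (0.17 ± 0.07, adjusted p = 0.37). In ET against AD they were those of Fosb, an immediate early transcription factor (-0.58 ± 0.24, adjusted p = 1), and Ackr3, an atypical chemokine receptor that binds and scavenges opioid peptides (0.19 ± 0.08, adjusted p = 1). In PF against AD they were those of Ackr3 (0.37 ± 0.09, adjusted p = 0.027) and Nptx2 (-0.21 ± 0.07, adjusted p = 0.18). Ackr3 in that comparison was the one value among the 7 lists with an adjusted p-value below 0.05, where 5.17% of all genes tested were, and its fold change is inside the limit of 1.5.

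**Figure D5:**
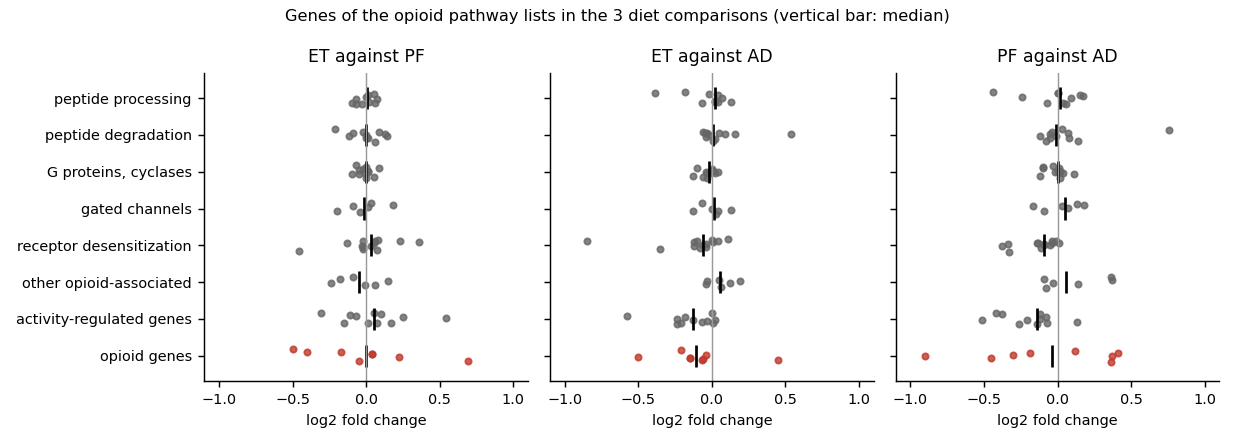
Log2 fold changes of the tested genes of 7 pathway lists (grey) and of the 8 opioid genes (red) in the 3 diet comparisons; each point is a gene and vertical bars are medians. List medians stay between -0.14 and 0.06, and the opioid genes range from -0.90 to 0.69.

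The genes whose levels followed each opioid gene most closely across the 17 libraries, after centring within diets, are given as a description with Pearson's r over log2(CPM + 1) and with no test; the libraries share their dissection and depth. Penk was followed by Chga (r = 0.94), a granin of dense-core vesicles, Rspo1 (0.92), a secreted Wnt enhancer that is in the cortex marker list, and Syt6 (0.92), a synaptotagmin. Chga and Rspo1 were highest in AD replicate 6 and Syt6 in ET replicate 1, the 2 libraries highest in Penk.

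Pdyn was followed by LOC120093659 (r = 0.85), the potassium channel subunit gene Kcnmb2 (0.83) and C1ql1 (0.82), of the C1q-like secreted proteins. The first and second were highest in AD replicate 4, where Pdyn itself was highest. Pnoc was followed by Brk1 (0.89), Maob (0.88) and Mgme1 (0.87), which encode an actin regulator, a monoamine oxidase and a mitochondrial nuclease. Among the genes closest to Pomc were Jtb (0.95) and Pycr3 (0.93), of proline synthesis.

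Oprm1 was followed by Akap11 (r = 0.98), a kinase anchoring protein gene, Slc7a14 (0.97) and Unc80 (0.96), a subunit gene of the sodium leak channel. All 3 were lowest in ET replicate 1, where Oprm1 had 2.68 normalized counts, and Slc7a14 ran from 155.9 there to 925.8 in ET replicate 3, where Oprm1 was highest. Oprk1 was followed by Thsd4 (0.85), Calb2 (0.83), which encodes calretinin, and the sodium channel gene Scn9a (0.81). Oprl1 was followed by Nipal3 (0.90), Fbxl2 (0.87) and the transcription factor gene Sox5 (0.87). Oprd1 had a mean of 9.84 normalized counts, below the minimum of 10, and was not compared. With the 14 kept libraries, 6 of the 21 genes stayed among the 3 closest.

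The opioid genes were also compared with each other within diets, in 28 pairs. 0 pairs passed an adjusted p-value of 0.05 by Pearson's or Spearman's permutation test. The pair with the smallest p-value was Oprm1 and Pomc (r = -0.78, permutation p = 0.0018, adjusted p = 0.051; rho = -0.60, adjusted p = 0.2).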

How the data were processed

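mRNA libraries of 17 hippocampi were sequenced as read pairs. The authors trimmed reads with fastp 0.23.2, mapped them to mRatBN7.2 with Bowtie2 2.4.2 and counted fragments on exons with featureCounts 2.0.1 at a minimum mapping quality of 10. The deposited values have the form of expected counts: fragments per gene, averaged by the authors over 3 technical replicates and not normalized, of which 53.3% were whole numbers. They were rounded, filtered with filterByExpr, scaled by TMM and tested over all genes by edgeR 4.0.16 (quasi-likelihood F-test, R 4.3.3), with Benjamini-Hochberg adjustment. The fit was tested on simulated data. Normalized counts use TMM over 17 libraries. Relations used log2(CPM + 1) and 100000 permutations within diets (scipy 1.17.1).

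The members and lists were chosen with earlier results of these data known. All 8 members are named in every comparison; from the pathway lists, called genes and the 2 with the smallest p-value in each diet comparison; overlapping genes; the 3 genes most like each member, of which 1 is not reported here; and markers set beside a result. Groups and replicate numbers come from the labels; 2 PF columns were tied to their group only. Depth was 10853947 to 17498392 counts per library. Alternatives were DESeq2 1.42.0, median-of-ratios scaling, no filter, sums of technical replicates, other thresholds, genes without overlaps, sex as a covariate, 1 fit of 3 diets, a replicate block, all 17 libraries and leaving out each library.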

Additional observations from a re-analysis of the deposited data

Results flagged for a closer look

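In 24 groups examined (8 opioid genes in 3 diets, over all 17 libraries), 3 had 1 library apart from the rest of its group by Dixon's criterion. Chance meets it in about 1 in 20 groups of normally distributed values. It was applied to normalized counts without a log scale, and the groups share libraries, so the rate for these data was not tested. Penk had 864.0 normalized counts in ET replicate 1, where the next ET library had 382.3. Penk had 1058.0 normalized counts in AD replicate 6, where the next AD library had 506.6. Pdyn had 778.8 normalized counts in AD replicate 4, where the next AD library had 475.2, and that library was not in the tests.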

How the results depend on the processing

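No opioid gene was called in any of the 6 comparisons under any alternative in which it was tested. Oprm1, Pdyn and Pomc were not tested in the fits without overlapping genes, and Oprd1 fell below the filter in ET against PF with all 17 libraries, with the block, without PF replicate 2 and without PF animal 11f5, and in PF against AD with all 17 libraries. Sex, its interaction and side were run under fewer alternatives than the diets. Of the 7 pathway lists, none had a called gene except that of other opioid-binding or receptor-associated proteins in PF against AD, which had 1 (Ackr3) at an adjusted p-value below 0.05 alone. Some values near 0 changed sign. With all 17 libraries these were Oprm1 in ET against PF (-0.02), Oprk1 right against left (0.14), and the interactions of Oprm1 (-0.01), Oprk1 (0.07) and Pnoc (0.02). With the cortex markers as a covariate, chosen after seeing the data, Oprm1 in ET against PF was -0.12. Without both ET replicate 1 and AD replicate 6, also chosen after seeing the data, the ET against AD values were 0.01 for Oprk1 and 0.03 for Pdyn, while Penk kept its sign at -0.33. Leaving out 1 library at a time, values in ET against PF ran from -0.60 to 0.40 for Oprm1, -0.12 to 0.18 for Oprd1 and -0.20 to 0.18 for Pomc, and in ET against AD from -0.78 to 0.24 for Penk, -0.36 to -0.06 for Oprk1, -0.19 to 0.80 for Oprm1, -0.12 to 0.01 for Oprl1 and -0.11 to 0.04 for Pdyn. The cause was not tested.

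Samples of the same number came from separate animals. Their deviations from the diet means had a correlation of -0.0121 and 0.599 in ET against PF, -0.247 to 0.162 over 3 pairs in ET against AD and -0.0762 to 0.0993 over 4 pairs in PF against AD, so the numbers were not taken as pairs. With a replicate block, 0 opioid genes were called in each diet comparison. Only numbers present in both diets bear on the block values. These values rest on 2 pairs in ET against PF, 3 in ET against AD and 4 in PF against AD. The block gave Oprm1 -0.34 in ET against PF, Oprl1 0.06 and Penk 0.46 in ET against AD, Oprl1 -0.00 in PF against AD, and for Pdyn 0.55 in PF against AD (edgeR adjusted p = 0.0056), -0.64 in ET against PF (adjusted p = 0.056) and -0.18 in ET against AD (adjusted p = 1), all inside the fold limit.

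Over all genes, the 349 called in ET against PF became 664 at an adjusted p-value below 0.05 alone. They became 197 with the block, which rests on 2 pairs there, and 127 without overlapping genes, where fewer genes were tested. The 2 in ET against AD became 0 with the block. The 327 in PF against AD became 825 at an adjusted p-value below 0.05 alone, 493 without a filter and 122 without overlapping genes. Oprd1, Pomc, Oprm1 and Oprk1 have at most 46.4 normalized counts, which limits their precision, and 4 to 5 animals from 1 litter per diet limit all diet comparisons.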
